A study of Mus musculus with 18 samples.

Results

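Kit, Kitl, Foxo3, Pik3ca, Akt1, Tsc1, Tsc2, Mtor and Cdkn1b are 9 genes of the pathway that starts the growth of dormant ovarian follicles. They were selected by gene symbol, and all 9 were found among the 28252 genes with deposited TPM (an RNA level corrected for gene length and library total) and the 53715 genes with deposited read counts. Oocytes of C57Bl/6j x CBA/J mice, labelled as in vivo material, had been sequenced in bulk in 18 libraries. The 3 stages were oocytes from primordial follicles, from primary follicles and at MII (arrest in the second meiotic division), each with 3 libraries of a sham and 3 of an NTY group. The labels do not explain NTY, give no age or agent, and do not say how many animals stand behind a library. The caps cut out for each stage were pooled, and nothing shows that the replicates came from separate animals, so the p-values measure only the spread between these libraries. By the protocol the 12 libraries of follicle stages should be those cut out by laser microdissection, amplified from little RNA and captured for coding RNA. The 6 MII libraries were made by Smart-seq II, so the effects of stage and of library preparation on MII values cannot be told apart, and MII libraries were not tested against the others.

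In a primordial follicle a resting oocyte is enclosed by flat pregranulosa cells, which make KIT ligand, the product of Kitl. The ligand binds the receptor KIT on the oocyte, and PI3 kinase (catalytic subunit from Pik3ca) then activates AKT (Akt1). AKT phosphorylates FOXO3, the transcription factor that holds the oocyte dormant, and drives it out of the nucleus. TSC1 and TSC2 form a complex that restrains the growth kinase MTOR, and the cell cycle inhibitor p27, made from Cdkn1b, also keeps follicles dormant. Much of this control acts on the phosphorylation and the place of the proteins, which RNA levels do not measure.

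On GRCm38 the members lie at chr5:75574916-75656722 (Kit, plus strand), chr10:100015630-100100416 (Kitl, plus), chr10:42181841-42276755 (Foxo3, minus), chr3:32397671-32468486 (Pik3ca, plus), chr12:112653821-112674884 (Akt1, minus), chr2:28641228-28691167 (Tsc1, plus), chr17:24595816-24632630 (Tsc2, minus), chr4:148448611-148557683 (Mtor, plus) and chr6:134920401-134925513 (Cdkn1b, plus). All are protein-coding genes. Promoters are shown for the 2 members whose RNA varied least between the microdissected libraries, Mtor and Foxo3, and for the member that varied most, Tsc1. Each stretch is from RefSeq (GRCm38.p6), runs 5′ to 3′ on the strand of the gene and ends before its annotated first exon, at chr4:148448332-148448581 for Mtor, chr10:42276756-42276945 for Foxo3 and chr2:28640983-28641227 for Tsc1. Capitals mark the GC box (CCGCCC or GGGCGG) and the CCAAT box (CCAAT or ATTGG), which did not overlap each other here.
Mtor: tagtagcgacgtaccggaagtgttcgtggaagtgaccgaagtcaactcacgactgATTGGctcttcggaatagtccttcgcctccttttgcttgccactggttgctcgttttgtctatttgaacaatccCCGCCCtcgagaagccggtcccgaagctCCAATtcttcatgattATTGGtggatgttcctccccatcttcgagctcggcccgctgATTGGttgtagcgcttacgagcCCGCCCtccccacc
Foxo3: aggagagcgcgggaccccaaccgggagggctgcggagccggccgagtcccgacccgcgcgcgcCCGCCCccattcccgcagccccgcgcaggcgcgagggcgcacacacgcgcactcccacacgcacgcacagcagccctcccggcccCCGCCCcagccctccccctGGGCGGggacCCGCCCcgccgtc
Tsc1: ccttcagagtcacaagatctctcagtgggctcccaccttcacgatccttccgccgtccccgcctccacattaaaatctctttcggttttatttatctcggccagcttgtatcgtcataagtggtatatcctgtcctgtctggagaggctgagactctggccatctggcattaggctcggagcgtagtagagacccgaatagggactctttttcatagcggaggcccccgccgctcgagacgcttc
The Mtor stretch held 2 GC boxes and 4 CCAAT boxes, the Foxo3 stretch 4 GC boxes and no CCAAT box, and the Tsc1 stretch neither. Over all 32851 RefSeq promoter windows, which run from 250 bases before to 50 bases after a start, 35.7% held a GC box and 37.4% a CCAAT box. The 9 members had 11 such windows. Of these, 10 held 20 to 42 CpG dinucleotides and the upstream start of Akt1 held 8, beside a median of 7 over all windows. The FOXO motif GTAAACA (or TGTTTAC) lay in 3.65% of all windows and, among the members, in the upstream Akt1 window alone. Of the other members' windows, Tsc2 held neither a GC nor a CCAAT box. The downstream Akt1 window held 5 GC boxes, Kitl 3, and Cdkn1b 1 GC box and 3 CCAAT boxes. Each window of Kit and Pik3ca held 1 GC box, and a link of these boxes to the spread was not tested. These matches describe letters in a window and not bound sites.

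Total counts ran from 15149564 to 29205503 in the microdissected and from 8652089 to 9978830 in the MII libraries, and intervals from counts cover counting error only. In the microdissected libraries the summed TPM of 9 oocyte marker genes ran from 2.40 to 1582 (median 338) and that of 11 granulosa cell markers from 371 to 3763. The sum of 8 stroma and theca markers ran from 460.1 to 7583 there. In MII libraries these sums were 10262 to 16866, 46.1 to 107 and 0 to 2.40. Cyp19a1 and Esr2 of the granulosa list were higher in MII, at 16.2 to 41.4 and 24.1 to 60.6 TPM. In the microdissected libraries they were at most at 0.19 and 8.09 TPM. Foxl2, Amhr2, Wt1 and Fst of that list were at 0 in all 6 MII libraries. The libraries labelled as oocytes from follicles thus held RNA of surrounding cells, and a difference in a bulk sample cannot separate fewer cells of a type from less RNA per cell. The library labelled primordial NTY replicate 3 stood apart with the lowest oocyte marker sum (2.40 TPM), beside 36.3 TPM or more in the other 11, so results that rest on it are given with and without it. Primary NTY replicates 2 and 3 have library codes that may name the same material. The summed TPM of 4 endothelial markers was 0.022 to 566 in the microdissected and 44.7 to 80.7 in the MII libraries. The 566 TPM was Tek alone, in primordial sham replicate 1. Pecam1 was at 36.8 to 61.7 TPM in MII and at most at 0.40 TPM in the microdissected libraries. Cdh5 was at 0 in all 6 MII libraries. The sum of 4 immune and mast cell markers was 0 to 1.87 in the microdissected and 0 to 14.2 in the MII libraries. The mast cell gene Cpa3 was at 0 in all 12 microdissected libraries.

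The members split into a steady and an unsteady set in the microdissected libraries. Mtor and Foxo3 were read at 3313 counts or more in all 12, while the highest value of each other member was at least 31.3 times its lowest or it was listed at 0 in a library. The spread was taken as the SD of log2(CPM + 1), where CPM is the count scaled to the library total, over the 6834 genes with a mean of at least 10 CPM. It was 0.63 for Mtor and 0.75 for Foxo3, beside a median of 2.61 over these genes. Only 0.629% of the genes had a smaller spread than Mtor and 1.07% a smaller spread than Foxo3. Of all 6834 genes, 4.24% had at least 1000 counts in all 12 libraries. Tsc2 came next with an SD of 1.75 (9.25% of genes smaller), followed by Cdkn1b with 2.35, Akt1 with 2.47, Kit with 2.64, Pik3ca with 2.76, Kitl with 2.87 and Tsc1 with 2.94. These 6 lay between the 31.4 and the 71.6 percent point of all genes. At most 3 counts were found in at least 1 library for 74.1% of the genes and for 4 of the 9 members, Kitl, Pik3ca, Akt1 and Cdkn1b. Among the 800 genes with a higher mean than Mtor 4.75% had a smaller spread than Mtor, but among the 72 with a higher mean than Foxo3 41.7% had a smaller spread than Foxo3.

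**Figure D1:**
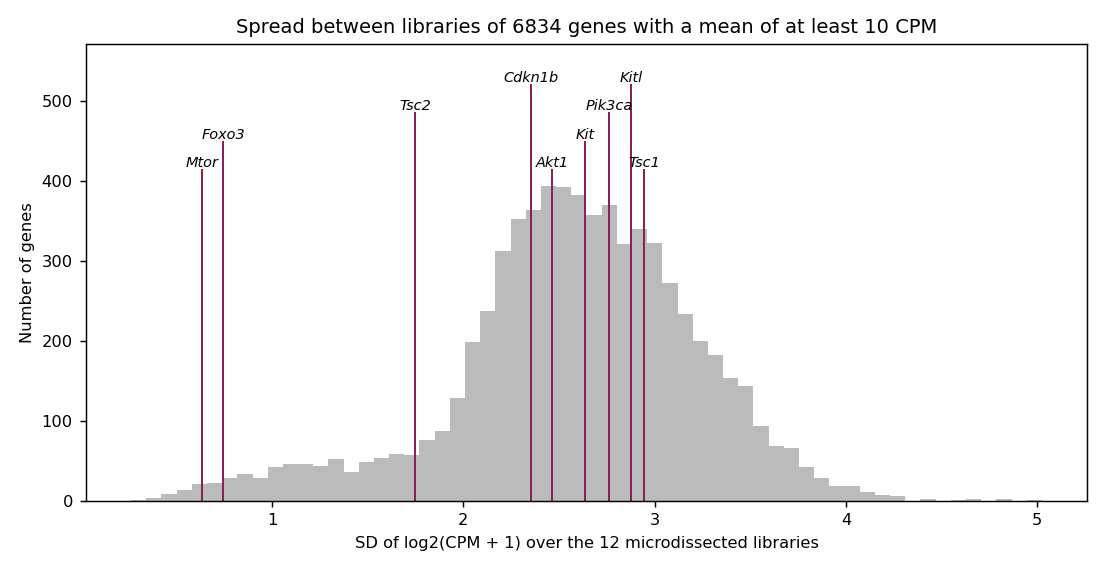
Number of genes (vertical axis) by the SD of log2(CPM + 1) over the 12 microdissected libraries (horizontal axis), for 6834 genes with a mean of at least 10 CPM. The lines mark the 9 members: Mtor (0.63) and Foxo3 (0.75) lie in the low tail, Tsc2 (1.75) at its edge and the other 6 within the bulk of the genes.

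In the MII libraries all 9 genes had counts in all 6 libraries, and 7 of the 9 had a mean of at least 10 CPM. The median SD of log2(CPM + 1) over the 7075 genes at that level was 0.54, beside 2.61 in the microdissected libraries, so the smaller spread was not particular to the members. Mtor (SD 0.62, 61.1% of genes smaller) and Foxo3 (0.59, 57.6%) were near the middle of the genes in MII, and Kit (0.94, 86.4%) was the most variable member. The highest TPM of a member was 2.39 (Tsc2) to 7.65 (Cdkn1b) times the lowest. In the microdissected libraries the same ratio was 5.52 for Mtor, 6.43 for Foxo3, 31.3 for Tsc2, 380.4 for Kit and 830.1 for Tsc1, and it has no value for the 4 members listed at 0 somewhere.

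**Figure D2:**
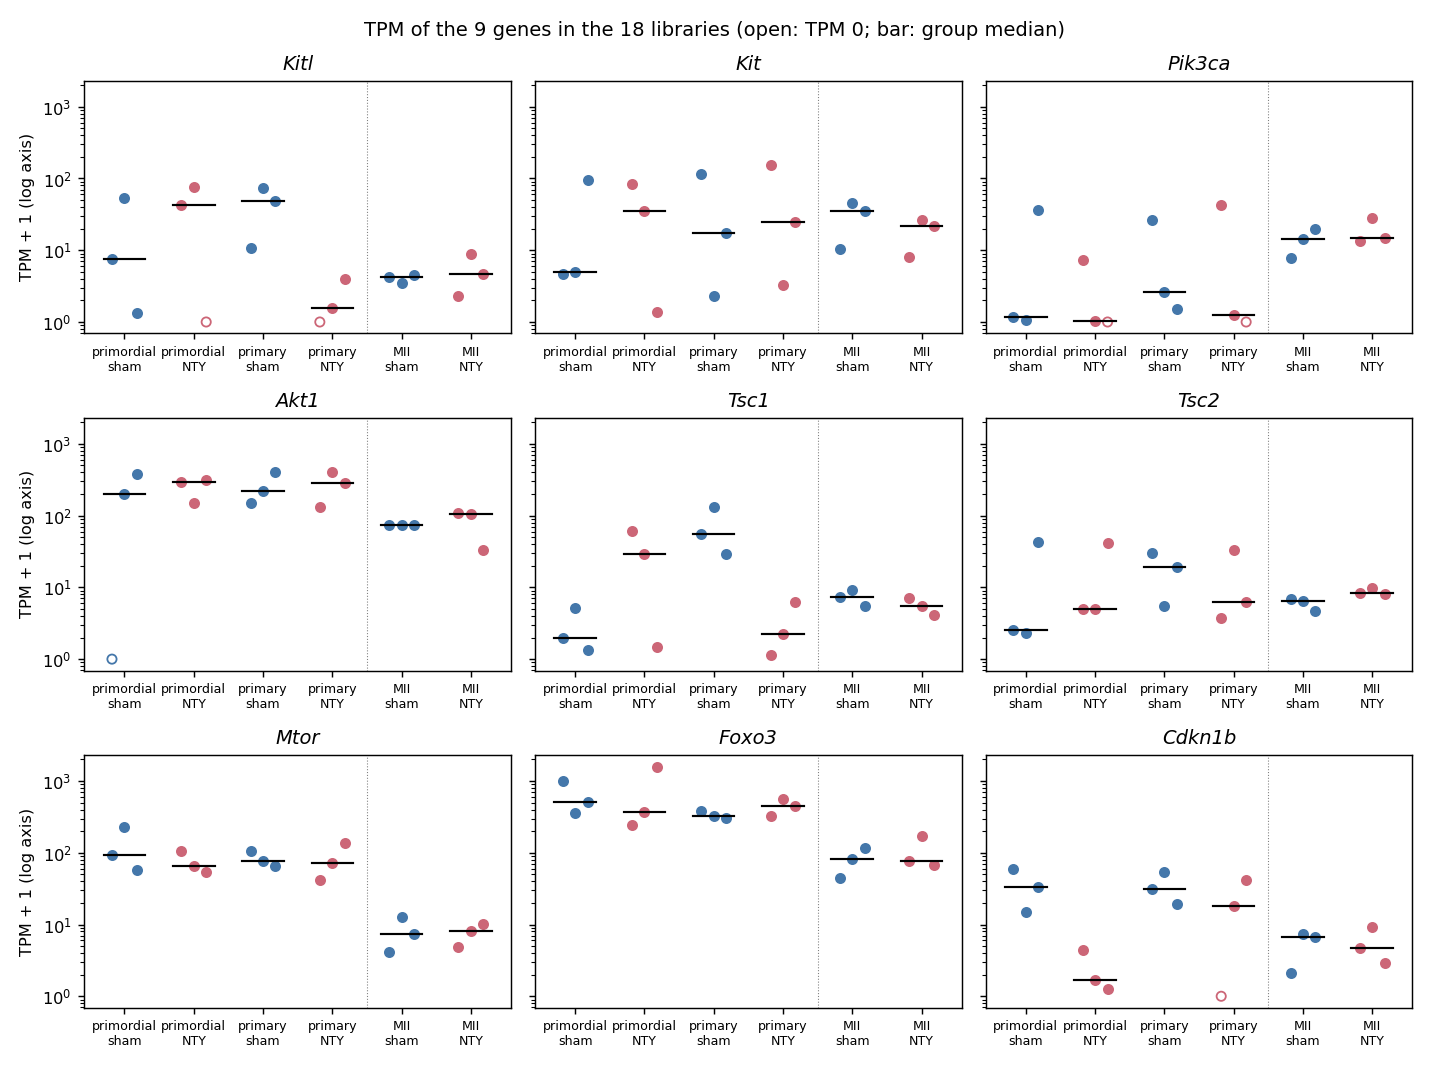
TPM + 1 on a log axis for each of the 9 genes in the 18 libraries, by stage and treatment (blue sham, red NTY, bars the median of 3 libraries, open points a TPM of 0). Foxo3 and Mtor are the members whose 12 microdissected libraries all lie above the 6 MII libraries, and Cdkn1b is low in the 3 primordial NTY libraries.

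Kitl, which encodes the ligand, was at 6.49, 52.4 and 0.34 TPM in the primordial sham libraries and at 41.7, 74.8 and 0 TPM in the primordial NTY libraries. The groups overlapped. In primary follicles it was at 9.79, 73.1 and 48.3 TPM in sham and at 0, 0.57 and 2.93 TPM in NTY, so that the highest NTY library lay under the lowest sham library. The library with no count allows at most 0.127 CPM at the limit of 3 counts. The log2 fold change of NTY against sham in primary follicles was -4.98 (SE 3.24, edgeR, adjusted p = 0.83), which was within the spread between libraries. In MII oocytes Kitl was at 3.24, 2.50 and 3.48 TPM in sham and 1.34, 7.99 and 3.69 TPM in NTY, from 27 to 164 counts. Ordered by mean TPM, the groups ran from primary sham (43.7 ± 31.9, SD, n = 3) and primordial NTY (38.8 ± 37.5) over primordial sham (19.7 ± 28.4) to primary NTY (1.17 ± 1.56). Neighbours in this order overlapped, primordial sham and primary NTY included.

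Kit, the receptor, was at 3.69, 3.99 and 94.4 TPM in primordial sham and at 82.6, 33.9 and 0.40 TPM in primordial NTY libraries. In primary follicles the values were 116, 1.31 and 16.6 TPM in sham and 152, 2.29 and 23.5 TPM in NTY. Each of the 4 groups held a library at 82.6 TPM or more and 1 at 3.69 TPM or less, so all overlapped. The log2 fold change of NTY against sham was 0.079 (SE 2.32) in primordial and 1.09 (SE 2.35) in primary follicles (edgeR, adjusted p = 1.0 in each). MII oocytes had 9.51, 44.6 and 33.9 TPM in sham and 6.96, 25.1 and 20.6 TPM in NTY, a log2 fold change of -0.61 (SE 0.56). Kit and Kitl are made by different cells of the follicle. The log2(TPM + 1) of Kit had r = 0.368 with the oocyte marker sum over the 12 libraries (permutation p = 0.245, adjusted 0.367 over 3 relations, rho = 0.371 with p = 0.236). Without the 2 libraries farthest from the median of the marker sum r was 0.259, and within groups 0.452. Kitl had r = -0.105 with the granulosa marker sum (permutation p = 0.742, adjusted 0.742, rho = -0.088 with p = 0.789, without 2 libraries 0.033, within groups -0.430).

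Pik3ca, the catalytic subunit of PI3 kinase, was detected at high level in 1 library of each microdissected group. It had 35.3 TPM in primordial sham replicate 3, 25.1 in primary sham replicate 1, 6.40 in primordial NTY replicate 1 and 42.0 in primary NTY replicate 1. The other 8 microdissected libraries were at 0 to 1.66 TPM. The same 4 libraries were those with the highest Kit level of their group. Over the 12 libraries the 2 genes had r = 0.74 on log2(CPM + 1) with TMM library sizes, a description over values that share library and depth. In MII oocytes Pik3ca was at 6.88, 13.3 and 18.8 TPM in sham and 12.7, 27.3 and 13.8 TPM in NTY. It was therefore found at 264 counts or more in all 6.

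Akt1, the kinase downstream of PI3 kinase, was listed at 0 TPM, with 0 counts, in primordial sham replicate 1. This allows at most 0.198 CPM in that library. The other 11 microdissected libraries were at 132 to 408 TPM, among the highest levels of the members. Group means ran from 193 ± 190.2 TPM in primordial sham over 252 ± 88.7 in primordial NTY and 256 ± 129 in primary sham to 275 ± 138 in primary NTY (SD, n = 3), and neighbours overlapped. In MII oocytes the sham libraries were at 73.9, 74.1 and 73.5 TPM and the NTY libraries at 107, 104 and 32.4 TPM. The MII log2 fold change was 0.10 (SE 0.42), within the spread.

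Tsc1, a brake on MTOR, had the widest spread of the members over the microdissected libraries. Primordial sham libraries were at 0.95, 4.12 and 0.33 TPM, and primordial NTY libraries at 59.8, 27.7 and 0.49 TPM. The last of these is the library with the lowest oocyte marker sum, and without it the NTY libraries lay above the sham libraries. In primary follicles the order was the other way round, with 53.8, 132 and 28.2 TPM in sham and 0.16, 1.23 and 5.23 TPM in NTY, and the groups did not overlap. The log2 fold change of NTY against sham was 3.91 (SE 2.66, edgeR, adjusted p = 0.63) in primordial and -4.76 (SE 2.77, adjusted p = 0.754) in primary follicles. The difference of these effects was -8.67 (SE 3.83, unadjusted p = 0.0285, edgeR, adjusted p = 0.34). It was the only one of 45 tests of members with an unadjusted p under 0.05, and it did not pass the adjustment over 10522 genes. DESeq2 called this difference (-8.15, adjusted p = 0.0147), in a comparison where it called 7.83% of all genes it tested, and the adjusted p over 18 alternatives ran from 0.0147 to 0.752. Without primordial NTY replicate 3 the difference was -9.15 (edgeR, adjusted p = 0.238). MII oocytes had Tsc1 at 6.24, 8.23 and 4.54 TPM in sham and 6.16, 4.55 and 3.11 TPM in NTY, a log2 fold change of -0.45 (SE 0.46).

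Tsc2, the partner of Tsc1, did not follow it. It was at 1.54, 1.34 and 42.0 TPM in primordial sham, 4.06, 3.93 and 39.98 TPM in primordial NTY, 29.2, 4.52 and 18.3 TPM in primary sham and 2.72, 32.6 and 5.20 TPM in primary NTY libraries. Every microdissected group had a library above 29 TPM and 1 under 5 TPM, and all 4 overlapped. In MII oocytes it was at 5.90, 5.40 and 3.73 TPM in sham and at 7.33, 8.92 and 7.17 TPM in NTY, so the groups did not overlap. The MII log2 fold change of 0.61 (SE 0.45, edgeR, adjusted p = 1.0, unadjusted p = 0.211) was within the spread.

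Mtor, the growth kinase that the TSC complex restrains, was at 91.7, 228 and 57.0 TPM in primordial sham, 106, 63.5 and 53.6 TPM in primordial NTY, 103, 76.8 and 65.0 TPM in primary sham and 41.2, 71.5 and 134 TPM in primary NTY libraries. All 4 groups overlapped. The log2 fold change of primary against primordial follicles over both treatments was -0.30 (SE 1.18, edgeR, adjusted p = 1.0). In MII oocytes it was at 3.09, 11.8 and 6.40 TPM in sham and 3.85, 7.15 and 9.15 TPM in NTY. Each of the 12 microdissected libraries lay above each of the 6 MII libraries.

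Foxo3, the factor that holds oocytes dormant, was the most abundant member. It was at 996, 359 and 512 TPM in primordial sham, 246, 373 and 1578 TPM in primordial NTY, 379, 328 and 304 TPM in primary sham and 324, 560.5 and 443 TPM in primary NTY libraries, from 12463 to 94231 counts. It was the highest of the 9 in 10 of 12 microdissected libraries, with Akt1 above it in primary sham replicate 3 and primordial NTY replicate 1, and it took 28.99% to 85.9% of the summed TPM of the 9 genes. In MII oocytes it was at 44.1, 80.4 and 117 TPM in sham and 76.2, 168 and 65.5 TPM in NTY, and was the highest member in 4 of 6. Its log2 fold change of NTY against sham was 0.69 (SE 1.07) in primordial follicles, 0.89 (SE 1.07) in primary follicles and 0.38 (SE 0.38) in MII oocytes, and that of primary against primordial follicles was -1.01 (SE 0.76, edgeR, adjusted p = 0.71). The primordial value was set by the library with the lowest oocyte marker sum, which has the highest Foxo3 level. Without it the log2 fold change was -1.30 (adjusted p = 0.791) and the stage value -0.12 (adjusted p = 1.0).

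The numbers of genes detected were lowest in the 2 libraries with the most Foxo3. Its highest values stood in the 2 libraries with the fewest genes detected, 1578 TPM with 6524 genes in primordial NTY replicate 3 and 996 TPM with 6147 genes in primordial sham replicate 1. Over the 12 libraries log2(TPM + 1) of Foxo3 and the count of genes detected had r = -0.769 (permutation p = 0.00264, adjusted 0.00792) and rho = -0.713 (p = 0.0119). Without primordial sham replicate 1 and primary sham replicate 3, the libraries farthest from the median number of genes, r was -0.702, and within groups it was -0.785. Without primordial NTY replicate 3 r was -0.725 (permutation p = 0.0107). Without both libraries of the fewest genes r was -0.507 (permutation p = 0.133), so the relation rested on them. Both measures come from the same library, whose TPM sum is fixed, and the part of the genes detected in the Foxo3 level was not tested.

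Cdkn1b, which encodes the cell cycle inhibitor p27, was at 58.5, 14.2 and 32.8 TPM in primordial sham and at 3.37, 0.68 and 0.25 TPM in primordial NTY libraries. All 3 NTY libraries lay under all 3 sham libraries, with or without the library with the lowest oocyte marker sum. The log2 fold change was -4.63 (SE 3.15, edgeR, adjusted p = 0.63) and without that library -4.29 (adjusted p = 0.766). DESeq2 gave -5.03 (adjusted p = 0.0888), and the adjusted p over 12 alternatives ran from 0.0888 to 1.0, so the change passed no test. The marker sums of these groups overlapped. The oocyte marker sum was 41.6 to 1582 TPM in primordial sham and 2.40 to 389 TPM in primordial NTY, and the granulosa marker sum was 371 to 2206 and 1890 to 3763 TPM. Their part in the Cdkn1b values was not tested. In primary follicles Cdkn1b was at 30.5, 53.5 and 18.04 TPM in sham and 0, 16.9 and 40.7 TPM in NTY, and the groups overlapped. In MII oocytes it was at 1.09, 6.49 and 5.73 TPM in sham and 3.66, 8.35 and 1.88 TPM in NTY, from 21 to 132 counts.

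Across the 5 comparisons none of the 9 members passed edgeR's quasi-likelihood test at an adjusted p under 0.05. The share of all genes called was 0.0095% for NTY against sham in primordial follicles, 0% in primary follicles, 0% at MII, 0% for the stage comparison (primary against primordial) and 0.0095% for the NTY effect of primary minus that of primordial follicles. At an unadjusted p under 0.05 these comparisons held 1145, 858, 280, 1132 and 1246 genes, of which 0, 0, 0, 0 and 1 were members. DESeq2 called 8.5%, 5.12%, 0.625%, 5.87% and 7.83% of the genes it tested, with 0, 0, 0, 0 and 1 members. In the 4 microdissected comparisons DESeq2 gave no p for Foxo3, Pik3ca and Tsc2, so it tested 6 of the 9 members there. The median log2 fold change of the members was 0.60, 0.47, 0.13, 0.17 and 0.20, beside 0.12, -0.10, 0.0038, 0.29 and -0.56 over all genes tested. Without primordial NTY replicate 3 the member median was -0.76 for NTY against sham in primordial follicles (4 positive, 5 negative). For the NTY effect of primary minus that of primordial follicles it was 1.31. The medians over all genes tested were then 0.0098 and -0.46. In simulated data every gene was given the same dispersion. For the primordial comparison, at the common dispersion of the data, edgeR recovered 0 of 200 genes with a log2 fold change of 4. At a low dispersion it recovered 199 of 200. In the MII comparison it recovered 116 and 193 of 200. The simulation does not cover genes with a smaller spread than most, such as Mtor and Foxo3 in the microdissected libraries. Without primordial NTY replicate 3 none of the 9 was called either, and the NTY effect in primordial follicles was 0.63 for Kit, 1.31 for Kitl, -1.94 for Pik3ca, 0.057 for Akt1, -2.11 for Tsc2 and -0.76 for Mtor on the log2 scale.

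**Figure D3:**
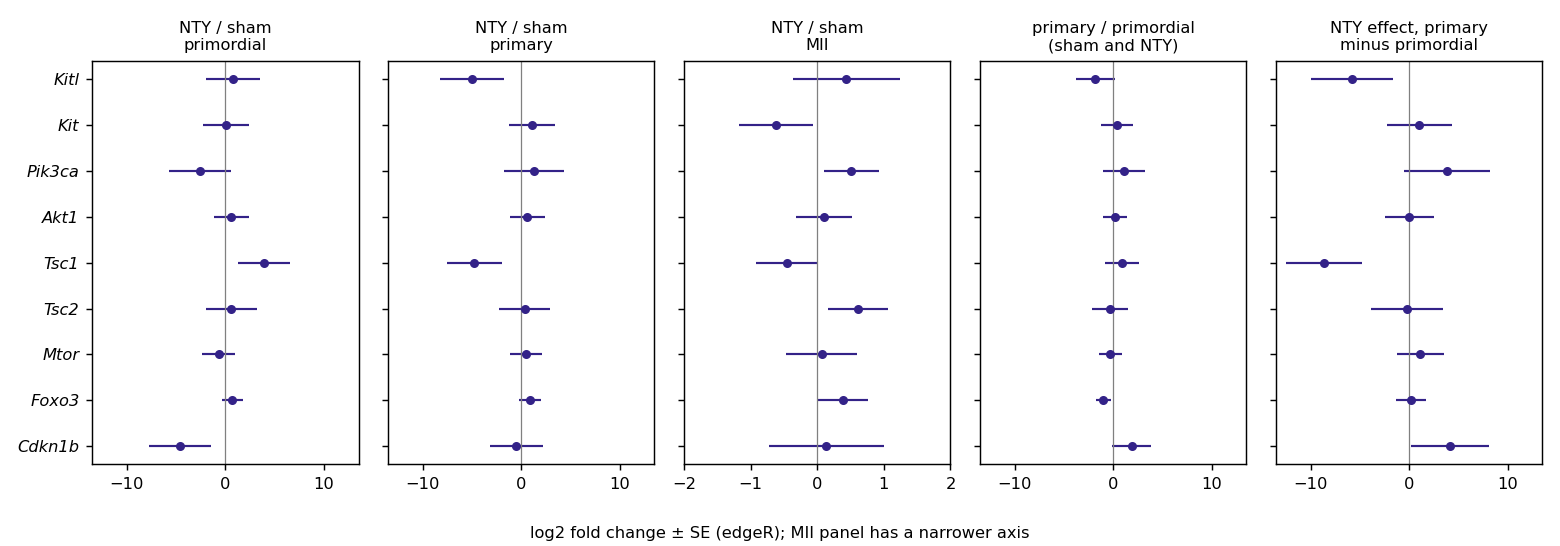
log2 fold change (horizontal axis, points) ± SE (bars) of the 9 genes in the 5 edgeR comparisons, with a narrower axis in the MII panel. The largest estimate is the Tsc1 difference between the stages (-8.67, SE 3.83), and no member passed the adjusted threshold.

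Groups that did not overlap on TPM were found for 4 members. In primordial follicles 1 of 9 was lower in NTY (Cdkn1b), where 2.73% of all genes compared were, and 0 of 9 were higher, where 5.25% of all genes were. Without the library with the lowest oocyte marker sum 1 was lower (Cdkn1b), beside 3.33%, and 1 was higher (Tsc1), beside 17.4%. The NTY libraries left had 10493 and 12461 genes with at least 1 count, the sham libraries 6147, 9229 and 9852. In primary follicles 2 of 9 were lower (Kitl and Tsc1), beside 13.7% of all genes, and 0 were higher, beside 1.25%. There the NTY libraries had 10255, 7474 and 9611 genes with at least 1 count and the sham libraries 12955, 10565 and 13755. These numbers did not overlap either, and their part in the Kitl and Tsc1 values was not tested. In MII oocytes 1 of 9 was higher (Tsc2), beside 2.04%, and 0 were lower, beside 5.52%. The same members were found on CPM with plain or TMM library sizes. On the TMM scale Foxo3 was in addition higher in all 3 primary NTY libraries, and the share of all genes on that scale was not taken. The TMM factors, which scale the library totals, were 1.35, 1.03 and 1.40 in primary sham and 0.951, 0.762 and 0.970 in primary NTY. Of the 9 members 2 (Foxo3 and Mtor) were higher in all 12 microdissected than in all 6 MII libraries, beside 2.83% of all genes, and 0 were lower in all, beside 23.3%.

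Other genes of the pathway were taken as a list of 25 adaptors, PI3 kinase subunits, kinases, MTOR partners and other regulators. edgeR tested 24 of them in the microdissected libraries and 21 in MII oocytes, and called none in any comparison. Their median log2 fold change was 0.050 in primordial and -0.025 in primary follicles for NTY against sham, 0.57 for primary against primordial follicles and 0.094 in MII oocytes, beside 0.12, -0.10, 0.29 and 0.0038 over all genes. At an unadjusted p under 0.05 there were 2, 1, 5 and 0 genes of the list in these comparisons, beside 1145, 858, 1132 and 280 of all genes tested, and 2 beside 1246 for the difference of the NTY effects. DESeq2 called 2, 1, 3 and 0 of the 23 it tested in these comparisons, and 2 for the difference of the NTY effects. Of all genes it tested, it called 8.5%, 5.12%, 5.87% and 0.625% in these comparisons and 7.83% for the difference. Eif4ebp1 and Gab1 were called higher in primordial NTY and Pik3cb lower in primary NTY. By stage the calls were Grb2, Pik3cb and Stk11 (1 higher, 2 lower in primary follicles), and for the difference Eif4ebp1 and Pik3cb, both lower. Eif4ebp1, a repressor of translation that MTOR releases, was at 0, 0 and 0.28 TPM in primordial sham and 588, 66.3 and 0.29 TPM in primordial NTY (log2 fold change 10.98, SE 3.97, edgeR, adjusted p = 0.405). The adaptor Gab1 was at 0 in all 3 primordial sham libraries and at 4.14, 0.55 and 0 TPM in primordial NTY. For each gene the value at or near the sham level was that of the library with the lowest oocyte marker sum.

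Of 6 targets of FOXO factors edgeR tested 6 in the microdissected libraries and 4 in MII oocytes, and of 3 regulators of Kit in oocytes it tested 2 in each set. It called none of those tested. DESeq2 called 1 target (Gadd45a) in primordial follicles and 1 (Ccng2) in primary follicles. It called these 2 in the stage comparison and in the difference of the NTY effects. It tested 5 targets in each, and called no Kit regulator. Of all genes it tested, it called 8.5%, 5.12%, 5.87% and 7.83% in these 4 comparisons. Bcl2l11, a cell death gene that FOXO factors can induce, was at 0 to 1.04 TPM in the microdissected and at 11.3 to 14.3 TPM in the MII libraries. Gadd45a, a growth arrest gene, was at 0 in all 3 primordial sham libraries and at 36.4, 66.1 and 0 TPM in primordial NTY (edgeR, adjusted p = 0.405, unadjusted p = 0.0128). Ccng2, a cell cycle gene, went the other way, at 0, 11.2 and 0 TPM in primordial sham and 0, 0.052 and 0 TPM in primordial NTY (edgeR, adjusted p = 0.438, unadjusted p = 0.041), and at 1.09, 3.83 and 2.03 TPM in primary sham and 0 in all 3 primary NTY libraries (adjusted p = 0.4997, unadjusted p = 0.0178). Of the Kit regulators, Lhx8 was at 0.15 TPM in primordial NTY replicate 3, the library with the lowest oocyte marker sum, where Kit was at 0.40 TPM. It was at 17.1 to 84.2 TPM in the other 11 microdissected libraries. Among these 11, Kit was also low in primary sham replicate 2 (1.31 TPM) and primary NTY replicate 2 (2.29 TPM). Sohlh2 was at most at 1.54 TPM in the microdissected libraries and at 14.8 to 32.9 TPM in MII oocytes.

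**Figure D4:**
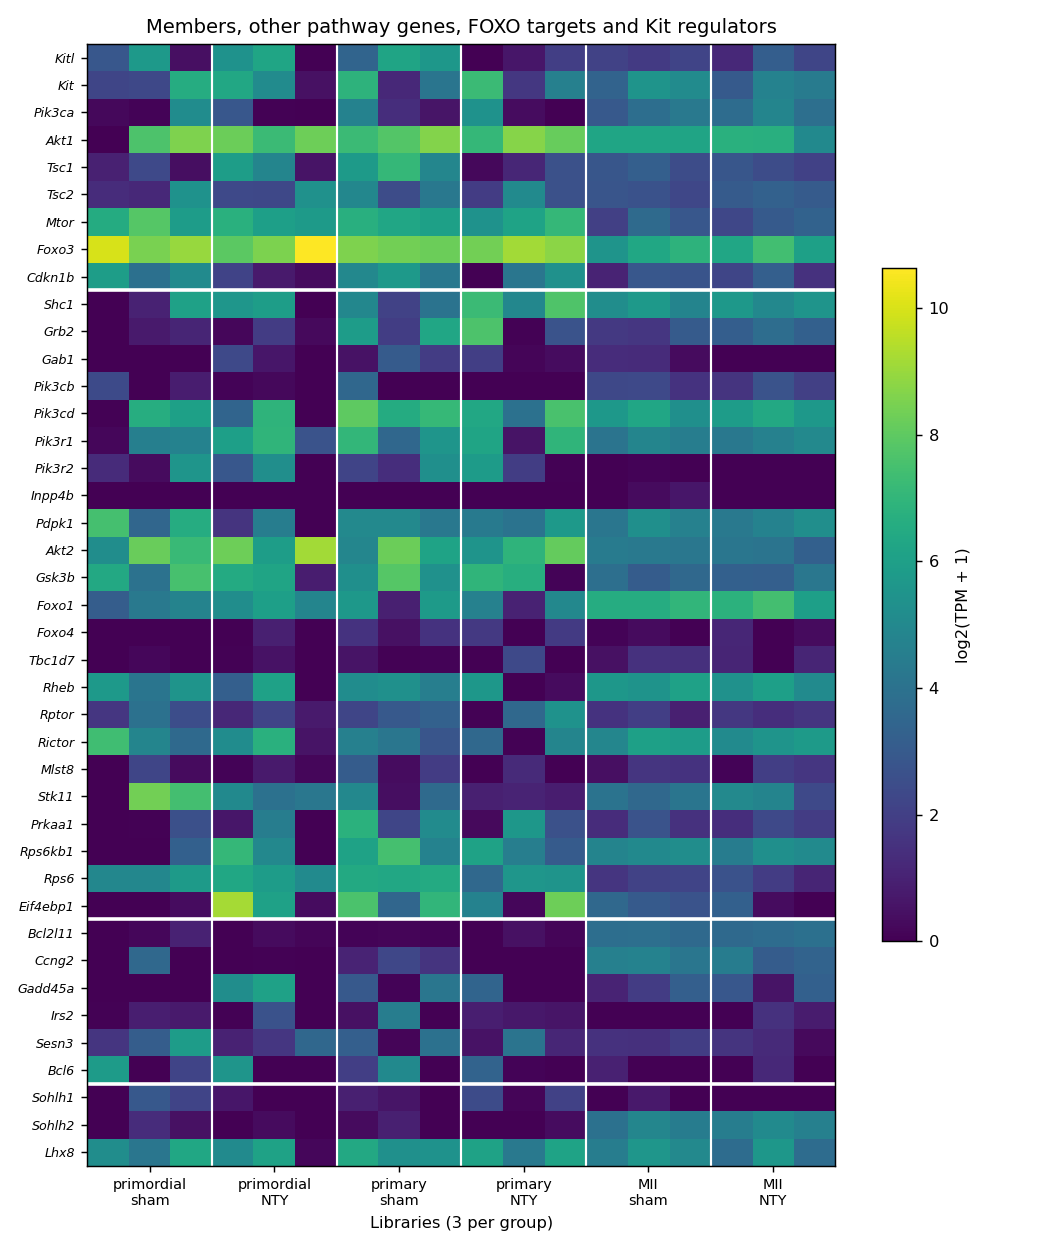
log2(TPM + 1), as colour, of the 9 members, 23 other pathway genes, 6 FOXO targets and 3 Kit regulators (rows, parted by white lines) in the 18 libraries (columns, 3 a group). The microdissected libraries of a group differ from each other in most rows, the MII libraries little, and the Foxo3 row is bright in all 12 microdissected libraries.

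The genes most like 3 of the members were sought among 6594 genes by r of the log2 values over the 12 microdissected libraries. They were Cdc5l (0.93), Med22 (0.92) and Ctps (0.91) for Kit, Atg7 (0.93), Zdhhc1 (0.91) and Zfp292 (0.90) for Kitl, and Sptan1 (0.90), Notch4 (0.88) and Cyb561a3 (0.85) for Foxo3. Among the members themselves Kitl and Tsc1 had the highest r (0.83) and Foxo3 and Tsc1 the lowest (-0.63). These values describe 12 libraries of unequal depth (15149564 to 29205503 total counts) that share their preparation, and they are the extremes of many pairs.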

How the data were processed

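RNA of 18 bulk libraries of mouse oocytes was analysed from the tables that the authors deposited, whole-number read counts per gene without normalization and TPM values, joined by gene identifier and column name. The submitters' processing notes list Trim Galore 0.4.1, TopHat2, featureCounts and mm10. Read handling at shared or overlapping genes and the lengths behind the TPM are not given in the sources used here. Groups came from the sample titles. Counts were tested with edgeR 4.0.16 in R 4.3.3 (quasi-likelihood, robust, TMM, filterByExpr, Benjamini-Hochberg adjusted p under 0.05), in 1 fit of the 12 microdissected libraries (10522 genes) and 1 of the 6 MII libraries (12209 genes). The SE is the log2 fold change over the square root of F. Alternatives were RLE size factors, no filter, a replicate block, DESeq2 1.42.0, limma 3.58.1 on log2(TPM + 1), only the groups compared, primary NTY replicates 2 and 3 summed, and leaving out each replicate. The fits were tested on simulated data: edgeR recovered 180 of 200 genes at a log2 fold change of 2 and low dispersion in the primordial comparison (10522 genes simulated) and 173 of 200 in MII (12209). Correlations used 100000 permutations. The spread scales, groups without overlap on other scales, DESeq2 calls of the lists and the Foxo3 relation without named libraries were added after seeing the data. Every member and any gene of the pathway, FOXO target, Kit regulator and marker lists could be named, with the 3 genes most like Kit, Kitl and Foxo3. The members and lists were chosen with earlier results of these data known. Coordinates are from GENCODE M21. The values of 2 genes of the pathway list are not reported here. Ms4a2 and Fcer1a, listed as mast cell markers, had no value in the TPM table used here.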

Additional observations from a re-analysis of the deposited data

How the results depend on the processing

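The 3 libraries a group, the spread between microdissected libraries and the doubt about primordial NTY replicate 3 limit every comparison of these genes. Of 258 tested member values under alternatives other than leaving out a replicate, 239 kept direction and side of the threshold, 18 changed sign and 1 passed the threshold (the Tsc1 difference between stages with DESeq2, -8.15). A further 12 values, of Foxo3, Pik3ca and Tsc2, had no p from DESeq2 and kept their sign. The same genes are not implied by the counts that follow, and the cause of each change was not tested. Genes called numbered 1, 0, 0, 1 and 0 for NTY against sham in primordial follicles, in primary follicles, primary against primordial, the difference and MII. With DESeq2 they were 703, 435, 528, 684 and 89. They were 2 with RLE and 6 with only the groups compared in primordial follicles, 3 with limma in primary follicles, 3 (primary against primordial) and 11 (difference) with no filter, and 0 for the difference with primary NTY replicates 2 and 3 summed. Leaving out 1 library gave 0 to 3, 0 to 0, 0 to 3, 0 to 8 and 0 to 0. RLE moved the median of all genes by 0.29 in primary follicles, -0.15 in the stage comparison and 0.28 in the difference. Other alternatives moved it further. In primary follicles the shift was -0.87 with limma and -0.66 with the replicate block. In the difference it was -0.88 with no filter, -0.80 with the replicate block and -1.10 without primordial sham replicate 3.

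No pairing by replicate number was seen: deviations of same-numbered libraries had mean correlations of 0.026, -0.013 and -0.0084 in primordial follicles, primary follicles and MII. With 3 pairs a stage and a wide spread between libraries, these values cannot exclude a pairing. With the replicate block the genes called were 1, 0, 0, 1 and 0, and the log2 fold change changed sign for Pik3ca in primary follicles (-1.54), for Kit (-1.03), Pik3ca (-0.62) and Tsc2 (1.52) in primary against primordial, and for Akt1 in MII (-0.021). Sign changes of NTY against sham elsewhere were Kit in primordial follicles with RLE (-0.068) and DESeq2 (-0.069), Foxo3 there with limma (-0.11), and in primary follicles Pik3ca (-0.33), Tsc2 (-0.69) and Mtor (-0.12) with limma and Tsc2 with the sum (-0.13). In primary against primordial they were Akt1 with RLE (-0.081), DESeq2 (-0.081) and the sum (-0.098) and Tsc2 with limma (0.54). In the difference it was Foxo3 with the sum (-0.056), and in MII Akt1 with limma (-0.047).

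Leaving out 1 library in turn changed the sign of these values, given as their ranges. In primordial follicles they were Kit (-1.25 to 3.25), Foxo3 (-1.30 to 1.38), Pik3ca (-9.60 to 4.12), Tsc2 (-2.11 to 3.99) and Mtor (-1.02 to 0.10), and in primary follicles Kit (-1.19 to 3.21), Pik3ca (-5.27 to 3.89), Tsc2 (-1.56 to 0.85) and Cdkn1b (-1.49 to 0.28). In primary against primordial they were Kit (-0.72 to 2.00), Pik3ca (-2.21 to 4.62), Akt1 (-0.21 to 0.65), Tsc2 (-1.45 to 1.41) and Mtor (-0.51 to 0.013). In the difference they were Kit (-2.17 to 3.12), Foxo3 (-0.40 to 2.29), Pik3ca (-2.82 to 10.89), Akt1 (-0.96 to 0.66) and Tsc2 (-3.64 to 2.64). In MII they were Kitl (-0.19 to 0.85), Foxo3 (-0.039 to 0.70), Akt1 (-0.20 to 0.44), Mtor (-0.35 to 0.49) and Cdkn1b (-0.48 to 0.47). None of these passed the threshold. The spread of Mtor was larger than that of 0.554% to 1.11% of genes and that of Foxo3 larger than 0.673% to 2.40% under the other scales and without primordial NTY replicate 3, and Pik3ca fell to 36.2% on log2(TPM + 1).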

Other observations

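Foxo1, a relative of Foxo3, was at 0.93 to 63.5 TPM in the microdissected and at 62.8 to 176 TPM in the MII libraries, so that 1 microdissected library lay just above the lowest MII library.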
